A study of Mus musculus with 12 samples.

Results

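Autophagy delivers cytoplasmic material to the lysosome, and the genes that build and load its vesicles were followed here in mouse bone marrow-derived macrophages (BMDMs) treated with olaparib or with methyl-nicotinamide (MNA). The gene set was fixed as a list of 37 symbols: the ULK kinase complex, the lipid kinase (PI3K) complex, the ATG9, ATG2 and WIPI proteins, the conjugation machinery, the ATG8 proteins, cargo receptors and the transcription factors TFEB and TFE3. A gene was kept if its mean over the 12 libraries was 10 or more counts, and all 37 were kept, of 35275 genes listed in the count files and 12849 tested. The lowest mean of the 37 was 202.5 counts, for Atg10.

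Bone marrow cells of wildtype mice were grown with IL4, IL10 and MCSF, cytokines that drive an alternatively activated macrophage, and received DMSO, olaparib or MNA for 6 days. Every group, the DMSO controls included, therefore carried the same 3 cytokines. Each group had 4 libraries, numbered 1 to 4 in the labels, and per the study the RNA came from BMDMs of 4 donor mice of either sex. Olaparib is an inhibitor of poly(ADP-ribose) polymerases, and MNA is a methylated form of nicotinamide. The doses, the strain and whether a number stands for a mouse are not stated for these libraries in the sources used here, so p-values measure the spread between these cultures. 

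In autophagy the ULK complex starts a vesicle, the class III lipid kinase marks its membrane, WIPI proteins read that mark, and ATG2 and ATG9 supply lipid. A chain of conjugating enzymes then attaches the small ATG8 proteins (the LC3 and GABARAP families) to the membrane, where cargo receptors such as p62 (Sqstm1) bind them and carry ubiquitin-tagged material in. TFEB and TFE3 are transcription factors of lysosomal and autophagy genes that are controlled mainly by their location in the cell. In macrophages the same machinery takes part in the handling of bacteria and of engulfed cells. Vesicle formation and flux are set largely at the protein level, so transcript counts describe the supply of mRNA and not the activity of the pathway.

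Library totals ranged from 21146291 to 31446849 counts. On the plane of the first principal components, which held 49.8% and 24.9% of the variance over all tested genes, MNA replicate 2 lay at -36.0 on the first component among the DMSO libraries (-43.7 to -33.6), while the other MNA libraries lay at 59.9 to 63.4. For 27 of the 37 autophagy genes, or 73.0%, its level was within the range of the DMSO libraries. The share was 67.4% over the 12641 tested genes with counts in every library. For the 37 genes, the counts of called genes and the differences called with MNA are therefore given with and without that library. Of 7 macrophage markers, 6 had a mean of 16.2 CPM (counts scaled to a common library total) or more in every group, and Fcgr1 was near the detection limit at 0.397 to 1.31 CPM. Their summed level was 2847 to 3281 CPM with DMSO, 3805 to 4336 with olaparib and 2826 to 4031 with MNA. The markers did not move together. With olaparib the means of Cd68 (839 CPM beside 1228 with DMSO) and Mrc1 (571 beside 679) were lower. Those of Adgre1, Csf1r, Itgam, Mertk and Fcgr1 were higher. With MNA the means of Csf1r (1418 CPM beside 517.5 with DMSO), Adgre1 and Itgam were higher. Those of Mrc1 (241 CPM), Cd68 (1074), Mertk and Fcgr1 were lower. Markers of other lineages were low: with DMSO each list summed to at most 8.39 CPM, apart from the dendritic list (17.5 to 20.98 CPM, mostly Zbtb46), and in all libraries the B cell list stayed at or under 6.83 CPM and the T and NK cell list at or under 3.86. The eosinophil list stood at 3.79 to 6.95 CPM with DMSO, 4.76 to 9.99 with MNA and 30.5 to 58.2 with olaparib, where it was all Siglecf, with Prg2 and Epx at 0. In MNA replicate 4 the 8 neutrophil genes summed to 53.2 CPM and the 4 erythroid genes to 54.4, beside at most 8.39 and 3.70 CPM in every other library. The part of these differences in the results below was not tested, and in bulk RNA fewer cells with a transcript and less transcript per cell cannot be told apart.

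Levels were compared between genes as RPKM, the CPM per kilobase of merged exons, in the DMSO libraries. Sqstm1 led at 521 ± 31.4 RPKM (mean ± SD, n = 4), above 99.5% of all tested genes. Gabarap at 225 ± 12.5 and Gabarapl1 at 134 ± 15.7 followed, and the libraries of each of these 3 genes did not overlap those of the next gene in the order. The order below them was less firm. Map1lc3a (26.9 RPKM) and Atg5 (26.7) overlapped, as did Tax1bp1 (24.0), Map1lc3b (23.8) and Atg7 (23.6), and neighbours from Gabarapl2 (19.4) down to Optn (10.4) all overlapped. The genes that start a vesicle spread widely: in the ULK complex Atg13 stood at 18.0 RPKM, Atg101 at 16.4, Ulk2 at 5.72, Ulk1 at 5.58 and Rb1cc1 at 3.20, while Atg2a stood at 12.2 and Atg9a at 2.84. Atg16l2, a relative of the conjugation scaffold Atg16l1, was lowest at 0.941 ± 0.0791 RPKM. The median of the 37 genes was 10.4 RPKM beside 4.35 over all tested genes, and 29 of the 37 were above that median. Merged exons count every annotated isoform, so genes with long alternative exons read low on this scale.

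**Figure D1:**
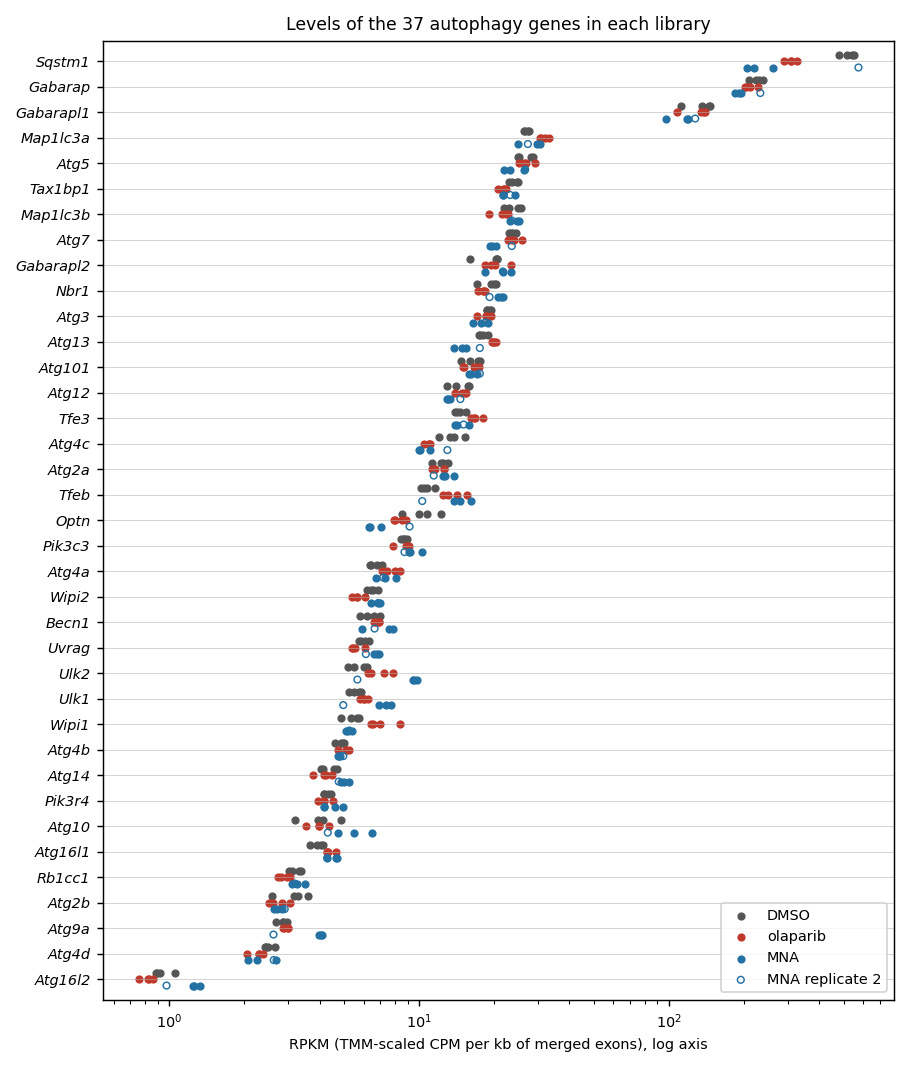
Level of each of the 37 autophagy genes in each of the 12 libraries, as RPKM on a log axis, with genes ordered by their DMSO mean; each point is a library, filled by group, and the open circle is MNA replicate 2. Sqstm1 is highest with DMSO (521 RPKM), its olaparib and MNA points lie to the left of the DMSO points, and the open circle lies with DMSO.

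Promoter sequences from RefSeq (build GRCm38.p6, 250 bases before to 50 after each start) were found for 31 of the 37 genes, in 38 promoters. They are shown for the genes whose promoters held one of 3 motifs linked to autophagy genes: the E-box CACGTG, read by TFEB and TFE3, its longer form TCACGTGA, and TGACNNNGC, the core of the antioxidant response element read by NRF2. Both strands were searched, and the longer E-box is a subset of the shorter. The E-box was in 4 of 38 promoters, or 10.53%, beside 7.15% of all 32851 promoters, and the longer form in 1 of 38 (2.63% beside 0.97%). The response element core was in 4 of 38, 10.53% beside 12.4%. A match describes the letters and is not evidence of binding. The windows of 30 bases are written 5′ to 3′ on the strand of the gene, with the motif in capitals.
Atg3, E-box, chr16:45158735-45158764, plus strand: CACGTGtcctgggagagtcgagtCACGTGa
Atg5, E-box, chr10:44268313-44268342, plus strand: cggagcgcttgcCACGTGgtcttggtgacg
Atg7, E-box, chr6:114670952-114670981, plus strand: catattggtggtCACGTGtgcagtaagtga
Atg14, E-box, chr14:47568418-47568447, minus strand: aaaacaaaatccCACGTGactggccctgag
Ulk2, response element core, chr11:61855090-61855119, minus strand: caagacgcgcTGACGTCGCacagggccggt
Atg13, response element core on the opposite strand, chr2:91710813-91710842, minus strand: cgccccacGCCGCGTCAtcagcacctcggc
Map1lc3b, response element core, chr8:121590432-121590461, plus strand: gcgagtcaccTGACTCGGCtgcggactgag
Tax1bp1, response element core, chr6:52713950-52713979, plus strand: gtctccgtggTGACGAAGCtctctttccca

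The second E-box of Atg3 is the longer form. The windows of Atg7 and Atg14 lie at starts well inside the annotated genes, which span chr6:114643097-114860614 and chr14:47540893-47570649. The 250 bases before the start of Sqstm1 (chr11:50210821-50211070, minus strand), the gene with the largest fitted change with olaparib, held none of the 3 motifs.

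Counts of all tested genes were fitted with edgeR in a model with 3 groups and no replicate block. A gene was called where the p adjusted over all tested genes was under 0.05. Both treatments were compared with the same 4 DMSO libraries, so their results share those controls. With olaparib 4 of the 37 genes rose, beside 14.3% of all tested genes, and 3 fell, beside 12.8%. With MNA 5 rose, beside 16.3%, and 3 fell, beside 12.3%. Without MNA replicate 2 the counts were 8 higher (22.5% of all tested genes) and 5 lower (21.2%) with olaparib, and 9 higher (27.2%) and 6 lower (26.9%) with MNA. The MNA counts were 0 and 0 without MNA replicate 1, without replicate 3 and without replicate 4. Shares over all tested genes are not given for those fits, so these counts cannot be read as particular to the 37 genes. With the DMSO and MNA libraries alone in the fit the counts were also 0 and 0, and there 0 of all 12379 genes tested passed. Against DMSO, the share of autophagy genes called was under that of all genes in the fit of all libraries. It was 18.9% beside 27.0% with olaparib and 21.6% beside 28.6% with MNA. It was also under that of all genes in the fit without MNA replicate 2. These gaps were not tested. The median log2 fold change of the 37 was -0.02 with olaparib and 0.03 with MNA, beside 0.00 and 0.00 over all tested genes. The median size of the change, whatever its sign, was 0.11 and 0.13, beside 0.24 and 0.26.

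Tfeb, which rose, and Atg4c, which fell, passed with both treatments. With olaparib the WIPI gene Wipi1, the ATG8 gene Map1lc3a and both transcription factors Tfeb and Tfe3 rose, and Sqstm1, Wipi2 and the protease gene Atg4c fell. With MNA the kinase gene Ulk2, the scramblase gene Atg9a, the scaffold genes Atg16l1 and Atg16l2, and Tfeb rose, and Atg13, Atg4c and the receptor gene Optn fell. The groups did not overlap for 14 of the 37 genes with olaparib (41.0% of all tested genes) and for 2 with MNA (12.4%), or 16 without MNA replicate 2 (54.2%).

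**Figure D2:**
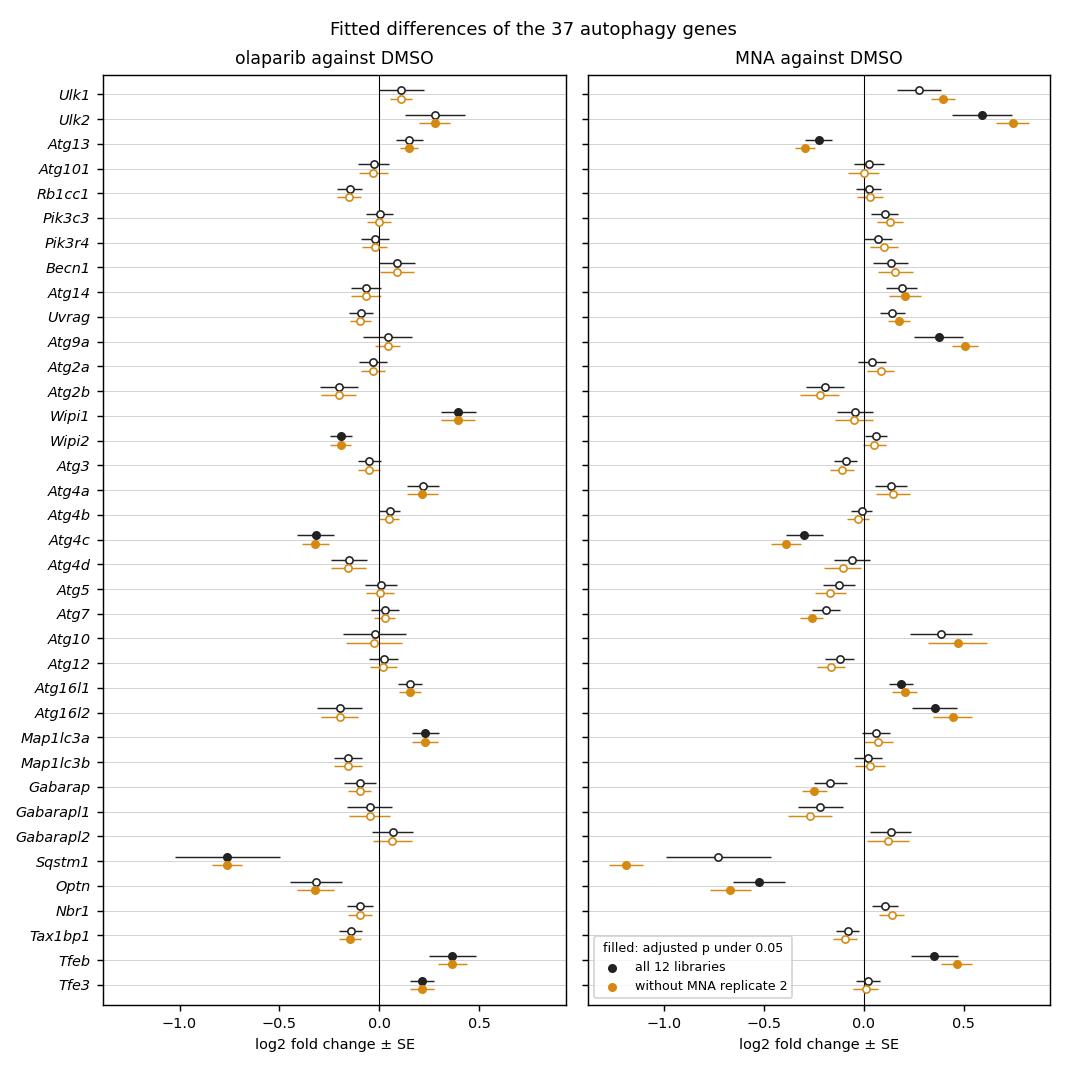
Fitted log2 fold change of each of the 37 genes against DMSO, with olaparib (left) and MNA (right); bars are standard errors, black points use all 12 libraries, orange points leave out MNA replicate 2, and filled points have an adjusted p under 0.05. The differences with olaparib hardly move between the fits while the errors shrink, and with MNA the Sqstm1 difference goes from -0.73 to -1.19.

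Of the 4 cargo receptor genes, Sqstm1 fell with olaparib and Optn with MNA in the fit of all libraries. Sqstm1 (ENSMUSG00000015837, chr11:50199366-50210827) encodes p62, which binds ubiquitin on cargo and ATG8 on the membrane. Its DMSO libraries held 1609, 1849, 1807 and 1732 CPM, its olaparib libraries 1094, 1035, 1032 and 965 CPM, and its MNA libraries 686, 1924, 877 and 737 CPM. All olaparib libraries and MNA replicates 1, 3 and 4 were below every DMSO library, and MNA replicate 2 was above them all. Sqstm1 fell to 0.590 of its DMSO level with olaparib (log2 fold change -0.76 ± 0.26 SE, adjusted p = 0.0495). With MNA the difference was -0.73 ± 0.26 and missed the threshold (adjusted p = 0.055). Without MNA replicate 2 it fell with MNA to 0.438 of its DMSO level (-1.19 ± 0.08, adjusted p = 7.58e-08), and the change with olaparib was -0.76 ± 0.08 (adjusted p = 4.2e-06). Over the 12 fits that each left out a library, the olaparib call was kept in 3, with adjusted p from 4.2e-06 to 0.111: it was lost without any DMSO or any olaparib library and without MNA replicate 3.

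Optn (ENSMUSG00000026672, chr2:5020642-5064051) encodes optineurin, a receptor for damaged mitochondria and for bacteria. It stood at 32.0, 37.5, 46.0 and 40.4 CPM with DMSO, at 32.0, 29.9, 33.3 and 30.1 CPM with olaparib and at 23.8, 34.4, 26.4 and 23.6 CPM with MNA. MNA replicates 1, 3 and 4 were below all DMSO libraries, and the olaparib range touched that of DMSO at its lowest library. Optn fell with MNA to 0.694 of DMSO (-0.53 ± 0.13, adjusted p = 0.0192; -0.67 ± 0.10 and 9.08e-05 without replicate 2). The difference with olaparib was -0.32 ± 0.13 (adjusted p = 0.0863), and it passed without MNA replicate 2 (adjusted p = 0.0125). The MNA call was lost without DMSO replicate 3 or MNA replicates 1, 3 or 4, at an adjusted p of up to 0.0646.

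Tax1bp1 (ENSMUSG00000004535, chr6:52713729-52766780) encodes a receptor that also restrains inflammatory signalling. It stood at 229.9, 235, 246 and 249.06 CPM with DMSO, at 207, 221, 217 and 224 CPM with olaparib and at 241, 231, 218 and 217 CPM with MNA. The olaparib libraries were all below the DMSO libraries, by a difference of -0.14 ± 0.06 that passed only where MNA replicate 2 was left out (adjusted p = 0.0753 with it and 0.044 without). Nbr1 (ENSMUSG00000017119, chr11:101552149-101581951) encodes a partner of p62 with a like domain order. It stood at 117, 134, 139.8 and 137 CPM with DMSO, at 119, 127, 125 and 124 CPM with olaparib and at 149, 132, 146 and 142 CPM with MNA. Its differences from DMSO were -0.10 ± 0.07 with olaparib (adjusted p = 0.289) and 0.11 ± 0.07 with MNA (adjusted p = 0.222).

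Per length, Sqstm1 made up 90.7% ± 0.438 of the summed RPKM of the 4 receptor genes with DMSO, 86.5% ± 0.795 with olaparib and 81.8% ± 2.13 in the MNA libraries other than replicate 2, where the share was 91.8%. The sum itself was 575 ± 34.1 RPKM with DMSO and 356 ± 14.99 with olaparib. With MNA it was 279 ± 28.8 without replicate 2 and 365.3 ± 174.6 with all 4 libraries.

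**Figure D3:**
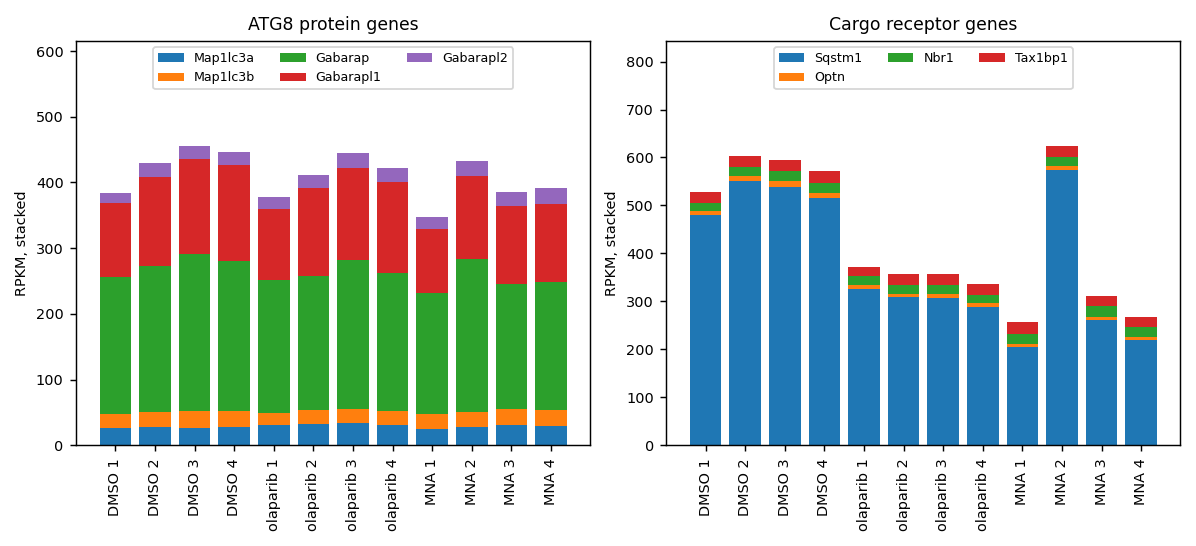
Stacked RPKM of the 5 ATG8 protein genes (left) and the 4 cargo receptor genes (right) in each library. The receptor stack is mostly Sqstm1 and is shorter with olaparib (356 RPKM) than with DMSO (575), while the ATG8 stacks overlap between the groups.

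The ATG8 genes, whose products are attached to the membrane and bind the receptors, held 1 called gene of 5 with olaparib and 0 with MNA in the fit of all libraries. Map1lc3a (ENSMUSG00000027602, chr2:155276297-155278073) encodes LC3A. It stood at 31.03, 32.4, 31.4 and 32.3 CPM with DMSO, at 36.3, 37.7, 39.2 and 36.0 CPM with olaparib and at 29.4, 32.2, 36.0 and 35.0 CPM with MNA. All olaparib libraries were above all DMSO libraries, and the MNA libraries spanned the DMSO range. Map1lc3a rose 1.17-fold with olaparib (0.23 ± 0.07, adjusted p = 0.027), and the difference with MNA was 0.06 ± 0.07 (adjusted p = 0.506). The olaparib call was kept in 6 of the 12 fits that each left out a library and was lost without any DMSO library and without olaparib replicates 2 or 3, at an adjusted p of up to 0.075.

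Map1lc3b (ENSMUSG00000031812, chr8:121590361-121598760) encodes LC3B, the usual marker of autophagosomes. It stood at 164, 172, 193 and 187 CPM with DMSO, at 144, 167, 170.1 and 162 CPM with olaparib and at 174, 177, 189.7 and 185 CPM with MNA. The olaparib range reached into the DMSO range, with a difference of -0.16 ± 0.07 (adjusted p = 0.116), and the difference with MNA was 0.02 ± 0.07 (adjusted p = 0.846). About 7.77% of its 31-base words also occur in transcripts of other genes.

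Gabarap (ENSMUSG00000018567, chr11:69991143-69994951) is the most abundant gene of the family. It stood at 385, 412, 439.7 and 422 CPM with DMSO, at 371, 374, 417 and 389 CPM with olaparib and at 339, 428, 350.2 and 359 CPM with MNA. MNA replicates 1, 3 and 4 were below all DMSO libraries, and replicate 2 was within their range. The difference with MNA was -0.17 ± 0.08 (adjusted p = 0.126) and passed without replicate 2 at -0.25 ± 0.06 (adjusted p = 0.00411). With olaparib it was -0.10 ± 0.08 (adjusted p = 0.394).

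Gabarapl1 (ENSMUSG00000030161, chr6:129533160-129542346) and Gabarapl2 (ENSMUSG00000031950, chr8:111940703-111953612) encode close relatives of GABARAP. Gabarapl1 stood at 225, 272, 292 and 293 CPM with DMSO, at 217, 270.5, 280.5 and 279 CPM with olaparib and at 196, 256, 238 and 239.9 CPM with MNA. Gabarapl2 stood at 37.3, 47.8, 47.7 and 47.2 CPM with DMSO, at 42.6, 44.95, 54.2 and 46.9 CPM with olaparib and at 42.7, 50.4, 50.4 and 54.1 CPM with MNA. The groups overlapped for both genes, and replicate 1 was the lowest library of each group. No difference from DMSO passed in the fit of all libraries, which had no replicate block. Gabarapl1 differed by -0.05 ± 0.11 with olaparib and -0.22 ± 0.11 with MNA (adjusted p = 0.778 and 0.15). Gabarapl2 differed by 0.07 ± 0.10 and 0.13 ± 0.10 (adjusted p = 0.654 and 0.328). With the replicate number as a block, the Gabarapl1 difference with MNA was -0.22 ± 0.06 and passed (adjusted p = 0.0232). Gabarapl2 shares 15.2% of its 31-base words with other genes, mostly Gm3724, so its counts are less certain. Together the 5 genes summed to 429 ± 31.7 RPKM with DMSO and 414 ± 28.1 with olaparib. With MNA the sum was 389 ± 34.5, or 374.9 ± 23.7 without replicate 2.

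Of the 5 ULK complex genes, Ulk2 rose and Atg13 fell with MNA, and none passed with olaparib in the fit of all libraries. Ulk2 (ENSMUSG00000004798, chr11:61775649-61855073) encodes a kinase that can act in place of ULK1. It stood at 36.0, 31.2, 37.0 and 32.7 CPM with DMSO, at 37.3, 47.2, 43.2 and 38.4 CPM with olaparib and at 58.6, 33.9, 56.9 and 56.7 CPM with MNA. MNA replicates 1, 3 and 4 were above every other library, and replicate 2 was within the DMSO range. The olaparib libraries were all above the DMSO range. Ulk2 rose 1.50-fold with MNA (0.59 ± 0.15, adjusted p = 0.0207), or 1.68-fold without replicate 2 (0.74 ± 0.08, adjusted p = 5.16e-06). With olaparib the difference was 0.28 ± 0.15 (adjusted p = 0.185), and it passed without MNA replicate 2 (adjusted p = 0.0109). The MNA call was lost without DMSO replicates 2 or 4 and without MNA replicates 1, 3 or 4, at an adjusted p of up to 0.0661.

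Atg13 (ENSMUSG00000027244, chr2:91674618-91710576) encodes the adaptor that holds the kinase to its scaffold. It stood at 76.2, 82.2, 79.1 and 76.9 CPM with DMSO, at 89.1, 87.5, 86.6 and 85.5 CPM with olaparib and at 64.9, 76.5, 67.3 and 60.3 CPM with MNA. The olaparib libraries were all above DMSO and MNA replicates 1, 3 and 4 all below it. Atg13 fell with MNA to 0.856 of DMSO (-0.22 ± 0.07, adjusted p = 0.0309; -0.29 ± 0.05 and 0.000253 without replicate 2). With olaparib the difference was 0.15 ± 0.07 (adjusted p = 0.116), and it passed without MNA replicate 2 (adjusted p = 0.0204). The MNA call was lost without DMSO replicates 2, 3 or 4 and without MNA replicates 1, 3 or 4, at an adjusted p of up to 0.0959.

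Of the other ULK complex genes, the kinase gene Ulk1 differed from DMSO by 0.28 ± 0.11 with MNA (adjusted p = 0.0768), which passed without replicate 2 at 0.40 ± 0.06 (adjusted p = 8.17e-05), and by 0.11 ± 0.11 with olaparib. The scaffold gene Rb1cc1 (FIP200) and Atg101 passed in neither comparison. The PI3K complex, which makes the lipid mark, held no called gene against DMSO in the fit of all libraries: Pik3c3, Pik3r4, Becn1, Atg14 and Uvrag lay between -0.09 and 0.09 with olaparib and between 0.07 and 0.19 with MNA. Without MNA replicate 2, Atg14, which directs the kinase to nascent vesicles, was higher with MNA by 0.21 ± 0.08 (adjusted p = 0.0425), and Uvrag, its counterpart on late vesicles, by 0.18 ± 0.06 (adjusted p = 0.0184). The exons of Becn1 overlap those of Cntd1 on the other strand over 43.9% of their length, and it is not stated which strand the counts were taken from. The same holds for Gabarapl1 with 1700101I11Rik (28.3%), Atg4d with Kri1 (19.3%), Uvrag with Gm45187 (17.6%) and Sqstm1 with Mrnip (17.3%). Over all 12 libraries together Cntd1 held 41 counts, 1700101I11Rik 250, Mrnip 183 and Kri1 7945.

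The WIPI genes went apart with olaparib. Wipi1 (ENSMUSG00000041895, chr11:109573331-109611967) stood at 21.4, 24.8, 23.6 and 25.4 CPM with DMSO, at 28.9, 28.3, 30.8 and 37.1 CPM with olaparib and at 23.7, 23.2, 22.4 and 23.0 CPM with MNA. Wipi2 (ENSMUSG00000029578, chr5:142627698-142670588), which recruits the ATG16L1 scaffold, stood at 65.4, 72.1, 67.5 and 68.9 CPM with DMSO, at 59.3, 63.9, 57.0 and 59.7 CPM with olaparib and at 67.5, 72.4, 73.7 and 72.2 CPM with MNA. For each gene the olaparib libraries were apart from all DMSO and all MNA libraries, above them for Wipi1 and below them for Wipi2. Wipi1 rose 1.31-fold with olaparib (0.40 ± 0.09, adjusted p = 0.00809), a call kept in all 12 fits that each left out a library. Wipi2 fell to 0.876 of DMSO (-0.19 ± 0.06, adjusted p = 0.0248), a call kept in 7 of the 12 and lost without DMSO replicates 2 or 4 or olaparib replicates 1, 3 or 4, at an adjusted p of up to 0.0717. The differences with MNA were -0.04 ± 0.09 for Wipi1 (adjusted p = 0.722) and 0.06 ± 0.06 for Wipi2 (adjusted p = 0.409).

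Atg9a (ENSMUSG00000033124, chr1:75180860-75192196) encodes the membrane protein that moves lipid between leaflets of the growing vesicle. It stood at 16.5, 16.5, 15.4 and 17.1 CPM with DMSO, at 17.2, 17.2, 16.6 and 16.4 CPM with olaparib and at 23.6, 15.1, 23.4 and 23.0 CPM with MNA. MNA replicates 1, 3 and 4 were above every other library and MNA replicate 2 was below them all. Atg9a rose 1.30-fold with MNA (0.37 ± 0.12, adjusted p = 0.0398), or 1.42-fold without replicate 2 (0.51 ± 0.07, adjusted p = 1.92e-05). That call was lost in each of the other 11 fits that left out a library, at an adjusted p of up to 0.114. The gene Gm29253, listed with 0 counts, covers 31.8% of the exon bases of Atg9a on the same strand. The counts and the RPKM of Atg9a are therefore less certain. The lipid transfer genes Atg2a and Atg2b passed in neither comparison in the fit of all libraries, and without DMSO replicate 1 Atg2b passed in both (adjusted p = 0.0254 with olaparib and 0.0393 with MNA).

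**Figure D4:**
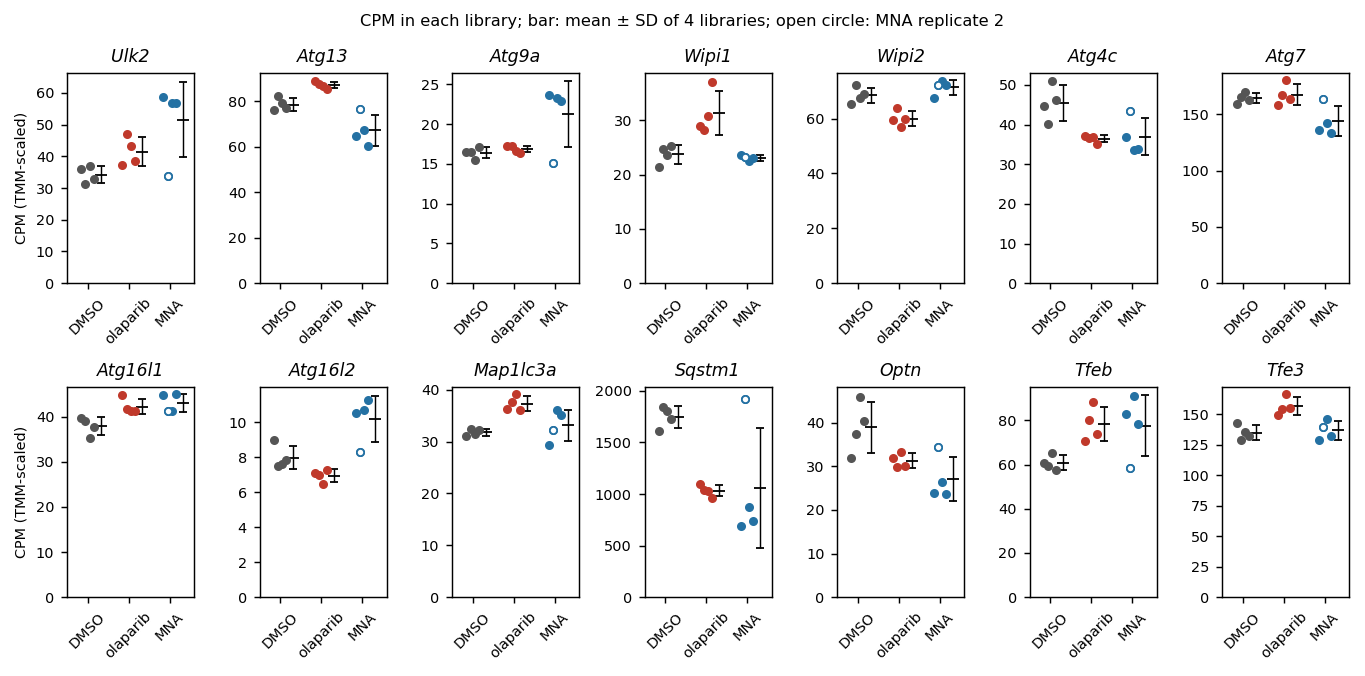
CPM in each library for the 14 genes with the smallest p against DMSO; points are libraries, bars are mean ± SD of 4 libraries, and the open circle is MNA replicate 2. For Sqstm1, Ulk2 and Atg9a the open circle lies apart from the other MNA points, at 1924, 33.9 and 15.1 CPM, and for Wipi1 and Wipi2 the olaparib points lie apart from both other groups.

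In the conjugation machinery, Atg4c fell with both treatments. Atg4c (ENSMUSG00000028550, chr4:99193934-99259787) encodes a protease that trims ATG8 proteins before and after they act. It stood at 44.6, 40.2, 51.0 and 46.2 CPM with DMSO, at 37.2, 36.7, 36.9 and 35.0 CPM with olaparib and at 37.0, 43.5, 33.6 and 33.8 CPM with MNA. All olaparib libraries and all MNA libraries but replicate 2 were below the DMSO range. Atg4c fell to 0.802 of DMSO with olaparib (-0.32 ± 0.09, adjusted p = 0.0241) and to 0.813 with MNA (-0.30 ± 0.09, adjusted p = 0.0332). Without MNA replicate 2 the difference with MNA was -0.39 ± 0.08 (adjusted p = 0.000607). The olaparib call was lost without DMSO replicates 3 or 4 or olaparib replicates 2, 3 or 4, and the MNA call without DMSO replicates 1, 3 or 4 or MNA replicates 1, 3 or 4, at adjusted p of up to 0.0748 and 0.101.

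The other protease genes Atg4b and Atg4d passed in neither comparison. Atg4a differed with olaparib by 0.22 ± 0.08 (adjusted p = 0.0609, or 0.0403 without MNA replicate 2), but 60.8% of its 31-base words also occur in the pseudogene Atg4a-ps, so its counts are uncertain.

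The scaffold genes rose with MNA. Atg16l1 (ENSMUSG00000026289, chr1:87755870-87792428), which sets where ATG8 is attached, stood at 39.7, 39.0, 35.4 and 37.7 CPM with DMSO, at 44.8, 41.7, 41.2 and 41.2 CPM with olaparib and at 44.8, 41.3, 41.4 and 45.04 CPM with MNA. Atg16l2 (ENSMUSG00000047767, chr7:101263034-101302251) stood at 8.95, 7.5004, 7.61 and 7.81 CPM with DMSO, at 7.07, 6.95, 6.44 and 7.28 CPM with olaparib and at 10.53, 8.27, 10.7 and 11.3 CPM with MNA. For Atg16l1 all libraries of both treatments were above the DMSO range, and for Atg16l2 the olaparib libraries were all below it and MNA replicates 1, 3 and 4 above it. Atg16l1 rose 1.14-fold with MNA (0.18 ± 0.06, adjusted p = 0.0385), and with olaparib its difference was 0.15 ± 0.06 (adjusted p = 0.0709, or 0.0389 without MNA replicate 2). Atg16l2 rose 1.28-fold with MNA (0.36 ± 0.11, adjusted p = 0.0363), and with olaparib its difference was -0.20 ± 0.11 (adjusted p = 0.206). Without MNA replicate 2 the differences with MNA were 0.20 ± 0.06 for Atg16l1 (adjusted p = 0.0112) and 0.44 ± 0.10 for Atg16l2 (adjusted p = 0.001635). Of the 12 fits that each left out a library, the MNA call of Atg16l1 was kept in 3 (without DMSO replicate 1, MNA replicate 2 or olaparib replicate 1) and that of Atg16l2 in 5, with adjusted p of up to 0.108 for both. The Atg16l2 call was lost without DMSO replicates 2, 3 or 4, MNA replicates 1, 3 or 4 or olaparib replicate 2.

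Atg7 (ENSMUSG00000030314, chr6:114643097-114860614) encodes the enzyme that activates both ATG12 and the ATG8 proteins. It stood at 159.5, 165, 169.6 and 163 CPM with DMSO, at 158, 167, 180.3 and 164 CPM with olaparib and at 136, 164, 142 and 134 CPM with MNA. MNA replicates 1, 3 and 4 were below all other libraries, and MNA replicate 2 was within the DMSO range. The difference with MNA was -0.19 ± 0.07 (adjusted p = 0.0565), and without replicate 2 it was -0.26 ± 0.06 (adjusted p = 0.00173). With olaparib it was 0.03 ± 0.07 (adjusted p = 0.791). Of the remaining genes of the group, Atg10, the enzyme that joins ATG12 to ATG5, differed with MNA by 0.38 ± 0.16 (adjusted p = 0.0767, or 0.0162 without replicate 2). Atg3, Atg5 and Atg12 passed in neither comparison, with or without that library.

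Both transcription factors rose with olaparib. Tfeb (ENSMUSG00000023990, chr17:47737030-47792419) stood at 60.8, 59.6, 65.4 and 57.6 CPM with DMSO, at 70.8, 80.4, 88.3 and 74.1 CPM with olaparib and at 82.7, 58.4, 91.2 and 78.2 CPM with MNA. Tfe3 (ENSMUSG00000000134, chrX:7762560-7775202) stood at 143, 129, 135 and 132 CPM with DMSO, at 149.8, 154, 167 and 155 CPM with olaparib and at 129, 139.6, 146 and 132 CPM with MNA. The olaparib libraries were above all DMSO libraries for both genes, while with MNA only Tfeb stood apart from DMSO, in replicates 1, 3 and 4. Tfeb rose 1.29-fold with olaparib (0.37 ± 0.12, adjusted p = 0.0381) and 1.28-fold with MNA (0.35 ± 0.12, adjusted p = 0.0436), or 1.38-fold without replicate 2 (adjusted p = 0.000196). Tfe3 rose 1.16-fold with olaparib (0.21 ± 0.06, adjusted p = 0.021), and its difference with MNA was 0.02 ± 0.06 (adjusted p = 0.811). The Tfeb calls were kept in 5 of the 12 fits that each left out a library with olaparib (lost without any DMSO library or olaparib replicates 2, 3 or 4) and in 2 with MNA (without MNA replicate 2 or olaparib replicate 3), at adjusted p reaching 0.105 and 0.128. The Tfe3 call was kept in 8 and lost without DMSO replicates 2, 3 or 4 or olaparib replicate 3 (up to 0.0735).

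**Figure D5:**
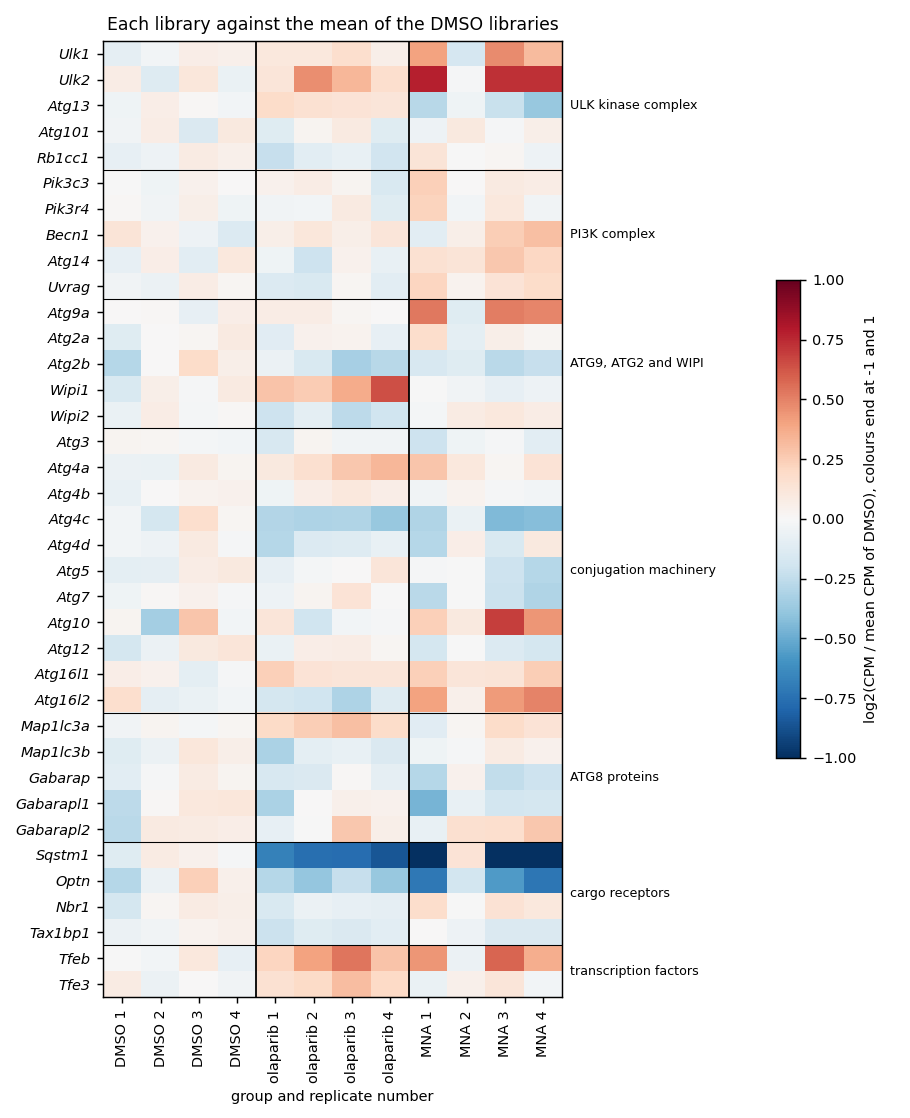
The log2 ratio of each library's CPM to the mean of the 4 DMSO libraries for the 37 genes, grouped by role; red is above and blue below the DMSO mean, and colours end at -1 and 1. MNA replicate 2 looks like the DMSO columns for most genes, and the darkest blue is Sqstm1 in MNA replicates 1, 3 and 4. Sqstm1 is also blue in every olaparib column.

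The treatments were also compared with each other, which does not use the shared controls except in the spread. Of the 37 genes, 4 were higher with olaparib than with MNA, beside 10.9% of all tested genes, and 5 were lower, beside 10.9%. Without MNA replicate 2 the counts were 6 higher (21.5% of all tested genes) and 10 lower (20.7%). In both directions together, 24.3% of the 37 genes were called in the fit of all libraries, beside 21.8% of all tested genes. Without MNA replicate 2 it was 43.2% beside 42.3%. Atg13 and Wipi1 were higher with olaparib by 0.37 ± 0.07 and 0.44 ± 0.09 (adjusted p = 0.00269 and 0.0051). Tfe3 and Atg7 were higher by 0.19 ± 0.06 and 0.22 ± 0.07 (adjusted p = 0.0368 and 0.0427). Atg16l2 was lower by 0.55 (-0.55 ± 0.11, adjusted p = 0.00532), Wipi2 by -0.25 ± 0.06 (adjusted p = 0.00778), Uvrag by -0.24 ± 0.06 (adjusted p = 0.0175), Atg14 by -0.26 ± 0.08 (adjusted p = 0.033) and Nbr1 by -0.20 ± 0.07 (adjusted p = 0.0447). The calls of Atg13, Wipi1, Wipi2 and Atg16l2 were kept in all 12 fits that each left out a library. That of Uvrag was lost without olaparib replicate 2 (adjusted p = 0.0533), and that of Atg14 without MNA replicates 3 or 4 or olaparib replicates 1, 2 or 4 (up to 0.0969). The call of Nbr1 was kept only without DMSO replicate 1 or MNA replicate 2 (otherwise up to 0.118), that of Tfe3 only without DMSO replicate 1 or MNA replicates 2 or 3 (up to 0.109), and that of Atg7 only without MNA replicate 2 (up to 0.126). For Sqstm1 the difference was -0.03 ± 0.26 (adjusted p = 0.947), and without MNA replicate 2 it was higher with olaparib than with MNA by 0.43 ± 0.08 (adjusted p = 0.0009). For Tfeb and Atg4c the differences between the treatments were 0.01 ± 0.12 and -0.02 ± 0.09 (adjusted p = 0.949 and 0.904).

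Another 74 autophagy genes were listed by role: early genes, fusion with the lysosome, other cargo receptors, upstream signalling and transcriptional regulators. Of these 72 were tested, and Ccpg1 and Rragb were too low. With olaparib 6 rose and 8 fell (19.4% called, beside 27.0% of all tested genes), and with MNA 6 rose and 11 fell (23.6% beside 28.6%). Their median log2 fold changes were -0.01 with olaparib and -0.05 with MNA. By role, with olaparib 4 of 8 transcriptional regulators rose and 0 fell (3 and 0 with the replicate number as a block), 1 of 16 other cargo receptors rose and 4 fell, 1 of 26 signalling genes rose and 2 fell, 0 of 14 fusion genes rose and 2 fell, and 0 of 8 early genes passed. With MNA 1 of 8 regulators rose and 1 fell, 3 of 16 cargo receptors rose and 2 fell, 1 of 26 signalling genes rose and 6 fell, 1 of 14 fusion genes rose and 2 fell, and 0 of 8 early genes passed. Without MNA replicate 2 the counts over the 72 genes were 12 higher and 17 lower with olaparib (40.3% called, beside 43.7% of all tested genes) and 15 higher and 26 lower with MNA (56.9% beside 54.1%).

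The 3 called genes of each direction with the smallest p in each comparison are named. Trp53inp1, a p53 target whose product promotes autophagy, stood at 43.4 ± 6.52 CPM with DMSO and rose 2.19-fold with olaparib (1.13 ± 0.12, adjusted p = 9.61e-05), and with MNA its difference was 0.22 ± 0.12. Tfec, a relative of Tfeb, rose 1.47-fold with olaparib (0.56 ± 0.12, adjusted p = 0.00764). Retreg1, a receptor for the endoplasmic reticulum, stood at 10.1, 8.29, 7.71 and 9.81 CPM with DMSO, at 17.1, 17.0, 17.5 and 20.6 CPM with olaparib and at 19.5, 9.53, 22.5 and 21.5 CPM with MNA. It rose 2.01-fold with olaparib (1.01 ± 0.22, adjusted p = 0.00659) and 2.03-fold with MNA (1.021 ± 0.218, adjusted p = 0.0144), while MNA replicate 2 again was in the DMSO range. Rraga, a GTPase that brings mTORC1 to the lysosome, fell to 0.846 of DMSO with olaparib (adjusted p = 0.00587). Nufip1, a receptor for ribosomes, fell to 0.8005 (adjusted p = 0.0179) and Fnip2, a partner of folliculin, to 0.659 (adjusted p = 0.0192).

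With MNA, Stbd1, which links glycogen to the membrane, rose 2.33-fold from 1.39 ± 0.279 CPM (adjusted p = 0.0142), and Lamtor4, a subunit of the Ragulator complex that anchors the Rag GTPases, rose 1.47-fold (adjusted p = 0.0175). Lamtor3, of the same complex, fell to 0.736 of DMSO (adjusted p = 0.0173). Flcn, which encodes folliculin and acts on the Rag GTPases, fell to 0.756 (adjusted p = 0.0185), and Tollip, a ubiquitin-binding receptor, also to 0.756 (adjusted p = 0.0231). Lamtor4 and Lamtor3 thus changed in opposite directions with MNA. Tollip fell with olaparib too, to 0.796 (adjusted p = 0.0408). In the 12 fits that each left out a library, the olaparib calls of Trp53inp1, Retreg1, Tfec and Rraga and the MNA call of Stbd1 were kept in all. With olaparib, Nufip1 was lost without olaparib replicate 4 (adjusted p = 0.0514), Fnip2 without DMSO replicate 3 or olaparib replicates 1 or 4 (up to 0.0571), and Tollip without DMSO replicates 2, 3 or 4 or any olaparib library (up to 0.11). With MNA, Retreg1 was lost without MNA replicate 3 (0.0518), Lamtor4 without MNA replicates 3 or 4 (up to 0.059), Lamtor3 without MNA replicates 1, 3 or 4 (up to 0.0598), Flcn without those or DMSO replicate 3 (up to 0.06), and Tollip without those or DMSO replicates 2, 3 or 4 (up to 0.0745). With the DMSO and MNA libraries alone in the edgeR fit, 0 of the 37 genes and 0 of the 72 passed. At an unadjusted p under 0.05 there were 13 and 29. Of all 12379 genes tested there, 0 passed (4728 unadjusted). DESeq2 on all libraries called 10 of the 37 and 23 of the 72 with MNA (27.0% and 31.9%), beside 34.6% of all tested genes.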

How the data were processed

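The authors sequenced RNA of BMDMs with the Illumina Stranded mRNA Prep kit as single-end reads, aligned them to GRCm38.p5 with STAR 2.5.2b and deposited raw counts per Ensembl gene, with 1 file a library. Which strand column was kept is not stated. The 12 libraries were grouped by their labels, 4 each for DMSO, olaparib and MNA. The 37 genes and the other lists were chosen with earlier results of these data known.

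Counts were filtered with filterByExpr (minimum count 10, minimum total 15), scaled by TMM and fitted in 1 model of 3 groups with edgeR 4.0.16 in R 4.3.3 (quasi-likelihood test, Benjamini-Hochberg adjustment over all 12849 genes). Standard errors are of the log2 fold change. CPM are TMM-scaled. Symbols, coordinates and exon lengths came from GENCODE M21 (GRCm38), which held 34490 of the 35275 gene identifiers. Levels in every library are given for the 14 genes with the smallest p against DMSO and for each ATG8 and cargo receptor gene, and of the other pathway genes the 3 called genes with the smallest p in each direction are named.

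Same-numbered olaparib and DMSO libraries deviated together from their group means (Pearson r of 0.227, 0.172, 0.225 and 0.408 for numbers 1 to 4, across genes), so these numbers were taken to pair the libraries. The main fit had no replicate block, so its olaparib p-values do not use that pairing. Adding the block changed no olaparib call of the 37 genes. For MNA and DMSO the r were 0.242, 0.114, -0.009 and 0.277. For olaparib and MNA they were 0.07, 0.137, 0.131 and 0.392, so the numbers with MNA were not taken to pair libraries. The MNA mean included replicate 2, which lay with DMSO, so low r there cannot show that the numbers do not pair. Alternatives were DESeq2 1.42.0, RLE and upper quartile scaling, no filter, a mean of 50 or more counts, the replicate block, the compared groups alone and each library left out.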

Additional observations from a re-analysis of the deposited data

Results flagged for a closer look

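In 6 of 111 sets of 4 libraries (37 genes in 3 groups) the highest or lowest library stood apart from the others by more than Dixon's 95% critical value, on the gap to the nearest library divided by the range of the set. Chance alone flags about 1 in 20 sets. Of the 6, 3 were in MNA replicate 2, 2 in olaparib replicate 1 and 1 in DMSO replicate 1.

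MNA replicate 2 held 33.881 CPM of Ulk2 while the other MNA libraries held 56.7 to 58.6, and the gap was 0.925 of the range. It held 15.078 CPM of Atg9a while the others held 23.0 to 23.6 (0.925 of the range), and 1923.8 CPM of Sqstm1 while the others held 686 to 877 (0.846). For 27 of the 37 genes this library was nearer to the DMSO mean than to the mean of the other MNA libraries, or 73.0%, beside 81.4% of the tested genes. Olaparib replicate 1 held 44.794 CPM of Atg16l1 beside 41.2 to 41.7 in the other olaparib libraries (0.859), and 217.26 CPM of Gabarapl1 beside 270.5 to 280.5 (0.842). DMSO replicate 1 held 37.268 CPM of Gabarapl2 beside 47.2 to 47.8 in the other DMSO libraries (0.947).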

How the results depend on the processing

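Of 2220 values of single genes under the alternatives, 1991 kept their side of the threshold, 161 lost and 66 gained a call, and 2 reversed. A reversal was a change of sign with a call in either fit. Changes of sign without a call are among the 1991. Both reversals were Sqstm1 between the treatments, from -0.03 to 0.43 without MNA replicate 2 and to 0.42 when the replicate block was added to that. With no filter on low counts, 2 of the 37 genes were higher with olaparib than with DMSO and 1 with MNA, and between the treatments 2 were higher and 3 lower with olaparib. With the compared groups alone, 7 were higher and 6 lower with olaparib (35.1%, beside 45.4% of all tested genes). With MNA the counts were 0 and 0 (0.0% of all tested genes), and between the treatments 2 higher and 3 lower (13.5% beside 14.4%). DESeq2 called 5 higher and 5 lower with MNA (27.0%, beside 34.6% of all tested genes).

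With the replicate block the counts were 4 higher and 3 lower with olaparib, where it changed no call (18.9%, beside 28.8% of all tested genes). The block gave 5 and 6 with MNA (29.7% beside 32.4%), and 4 and 5 between the treatments (24.3% beside 22.2%). With MNA it added Atg10, Atg7, Gabarapl1 and Sqstm1 (adjusted p = 0.0346, 0.0452, 0.0232 and 0.0269) and dropped Atg9a (0.0504), and between the treatments it dropped Atg14 (0.0506) and Nbr1 (0.0596) and added 2 genes. With the block and without MNA replicate 2 the counts were 8 and 6, 8 and 8, and 9 and 10.

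Over the fits without each library in turn the Sqstm1 difference between the treatments went from -0.20 to 0.43. Leaving out each library in turn gave 1 to 8 higher and 0 to 5 lower with olaparib, 0 to 9 and 0 to 6 with MNA, and 2 to 6 and 2 to 10 between the treatments. The cause of these changes was not tested. Shares over all tested genes are not given for the fits without a filter or without a library other than MNA replicate 2. Nor are they given for the block without MNA replicate 2, so those counts cannot be read as particular to the 37 genes. The lowest mean of the 37 genes was 202.5 counts, and counting error and the spread between cultures were not separated: the median coefficient of variation of the 37 genes was 5.55% with DMSO, 5.44% with olaparib and 8.41% with MNA, or 5.54% without replicate 2.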

Other observations

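The replicate number went along with the level of the ATG8 genes in every group. Replicate 1 was the lowest library of the DMSO, the olaparib and the MNA group for 4 of the 5 ATG8 genes (Gabarap, Gabarapl1, Gabarapl2 and Map1lc3b) and for the protease gene Atg4b. These are 5 of the 37 genes, or 13.5%, beside 479 of 12849 tested genes, or 3.73%. Replicate 3 was the highest library of all 3 groups for Map1lc3b, Tfeb and Ulk1, or 8.11% of the 37 genes beside 2.49% of all tested genes. The pattern was noticed in these data and was not tested.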
